A study of Bos taurus with 6 samples.

Results

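The genes described here encode the fibrillins, elastin, the fibulins and the microfibril-associated proteins of the elastic fibre system: FBN1, FBN2, ELN, FBLN1, FBLN2, FBLN5, EFEMP1, EFEMP2, MFAP2 and MFAP5. They were chosen by gene symbol, 10 of the 27607 Ensembl genes in the deposited tables, and each symbol stood on 1 identifier. RNA-seq was made from articular chondrocytes of the deep zone, the cartilage layer next to the bone, taken from cattle and infected with a lentivirus that carries doxycycline-inducible bovine CREB5, a DNA-binding protein of the ATF family. Both groups carried the lentivirus, went through 11 days of selection in 500 µg/ml of G418, and were then kept for 3 days on low attachment plates in 10% FBS with 20 ng/ml of TGFb2 and 100 ng/ml of TGFa. Dox- cells (3 libraries) received no doxycycline, and Dox+ cells (3 libraries) received it at 1 µg/ml per the treatment protocol in the labels, whereas the series' design text has mg/ml beside the same figure. No group with doxycycline but without the CREB5 transgene was analysed here, so effects of doxycycline and of CREB5 cannot be told apart. Libraries of both groups were numbered 1 to 3, and the cells came from 3 knees, which the labels do not tie to the numbers. Values of single libraries are always given in the order 1, 2, 3.

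Fibrillins are large glycoproteins that polymerize into the beaded microfibrils of connective tissue, on which tropoelastin is deposited and cross-linked into elastic fibres. Fibulins help to join tropoelastin to the microfibril, MFAP proteins decorate the microfibril, and latent TGF-beta binding proteins dock on it, so microfibrils also store growth factors. In articular cartilage, fibrillin microfibrils and thin elastic fibres are known from the matrix around the cells and from the superficial zone.

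CREB5 stood between 308 and 510 normalized counts in Dox- and between 12413 and 21964 in Dox+ libraries, so each library lay on the side that its label gives. The counts do not separate the transgene from the cells' own CREB5. Library depth ran from 20063379 to 122366790 reads, with the shallowest (3) and the deepest (2) both in the Dox+ group. Of 10 chondrocyte markers, 9 passed the filter for testing and CNMD did not, MATN3 rose, ACAN and COL9A1 fell, COL2A1 and COL11A2 fell in limma with the library number as a block but not without it, and their summed level was 156662 to 310323 normalized counts in Dox- and 104197 to 121981 in Dox+ libraries. Of 9 fibroblast markers, 7 passed the filter (CD34 and PI16 did not), with sums of 1687244 to 1732884 in Dox- and 1140003 to 1473618 in Dox+, and 0 of them passed the test without the block. With the block DPT rose, 3.99-fold (limma adjusted p = 0.0014, and 0.072 without it), and THY1 fell (limma adjusted p = 0.0049, and 0.15 without it). Of 8 smooth muscle and pericyte markers, 6 passed the filter (MYH11 and RGS5 did not), with sums of 6511 to 14047 in Dox- and 8759 to 21717 in Dox+. ACTA2 fell in both fits, and DES rose with the block (limma adjusted p = 0.0014, and 0.36 without it). The endothelial list (8 genes, CLDN5 at 0) summed to between 158 and 317 normalized counts in Dox- and 165 and 248 in Dox+, and the leukocyte list (8 genes, ITGAM at 0) to between 204 and 494 and between 381 and 736, and 0 genes of these lists passed in either fit. In the osteoblast list (6 genes, DMP1 at 0) the sums were 26530 to 39213 in Dox- and 28395 to 60053 in Dox+, where ALPL and SP7 fell with the block and 0 genes passed without it. The part of other cell types in the results below was not tested, and in such bulk samples more cells of a type and more RNA per cell cannot be told apart.

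FBN1 was the 1 member called higher without the library number as a block, and with the block FBLN5 was called higher too. FBN1 (ENSBTAG00000002278), the main fibrillin after birth and the gene mutated in Marfan syndrome, had 87051, 47875 and 43030 normalized counts without doxycycline against 209202, 136129 and 180517 with it. Each Dox+ library lay above each Dox- library, and the highest Dox- library and the highest Dox+ library were both number 1. The mean was 59319 ± 24139 in Dox- and 175282 ± 36817 in Dox+ (SD, n = 3). On the scale of log2(normalized count + 1), on which all differences are given here, the difference was 1.61 (SE 0.32), a 3.06-fold rise, with a limma adjusted p of 0.030. The same-numbered pairs differed by 1.26, 1.51 and 2.07. With 1 library left out, the limma adjusted p was 0.12 or 0.14 when Dox- 2 or Dox- 3 was dropped, and 0.11 or 0.15 when Dox+ 1 or Dox+ 3 was dropped. With the library number as a block it was 0.0020, and over 21 alternatives it ran from 3.6e-11 to 0.15. FBN1 took between 0.0804% and 0.171% of all normalized counts in Dox- libraries and between 0.252% and 0.407% in Dox+ libraries.

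FBN2 (ENSBTAG00000015307), the fibrillin known mostly from fetal tissue, did not pass the test. It had 2949, 305 and 1590 normalized counts without doxycycline against 2249, 415 and 1193 with it. The Dox+ range lay inside the Dox- range, and in each group library 1 was highest and library 2 lowest. The difference between groups was -0.12 (SE 0.83, limma adjusted p = 0.98), with a 95% interval of -2.02 to 1.78. With the number as a block the interval narrowed to between -0.62 and 0.38 (limma adjusted p = 0.85), which leaves out a rise of the size measured for FBN1.

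**Figure D1:**
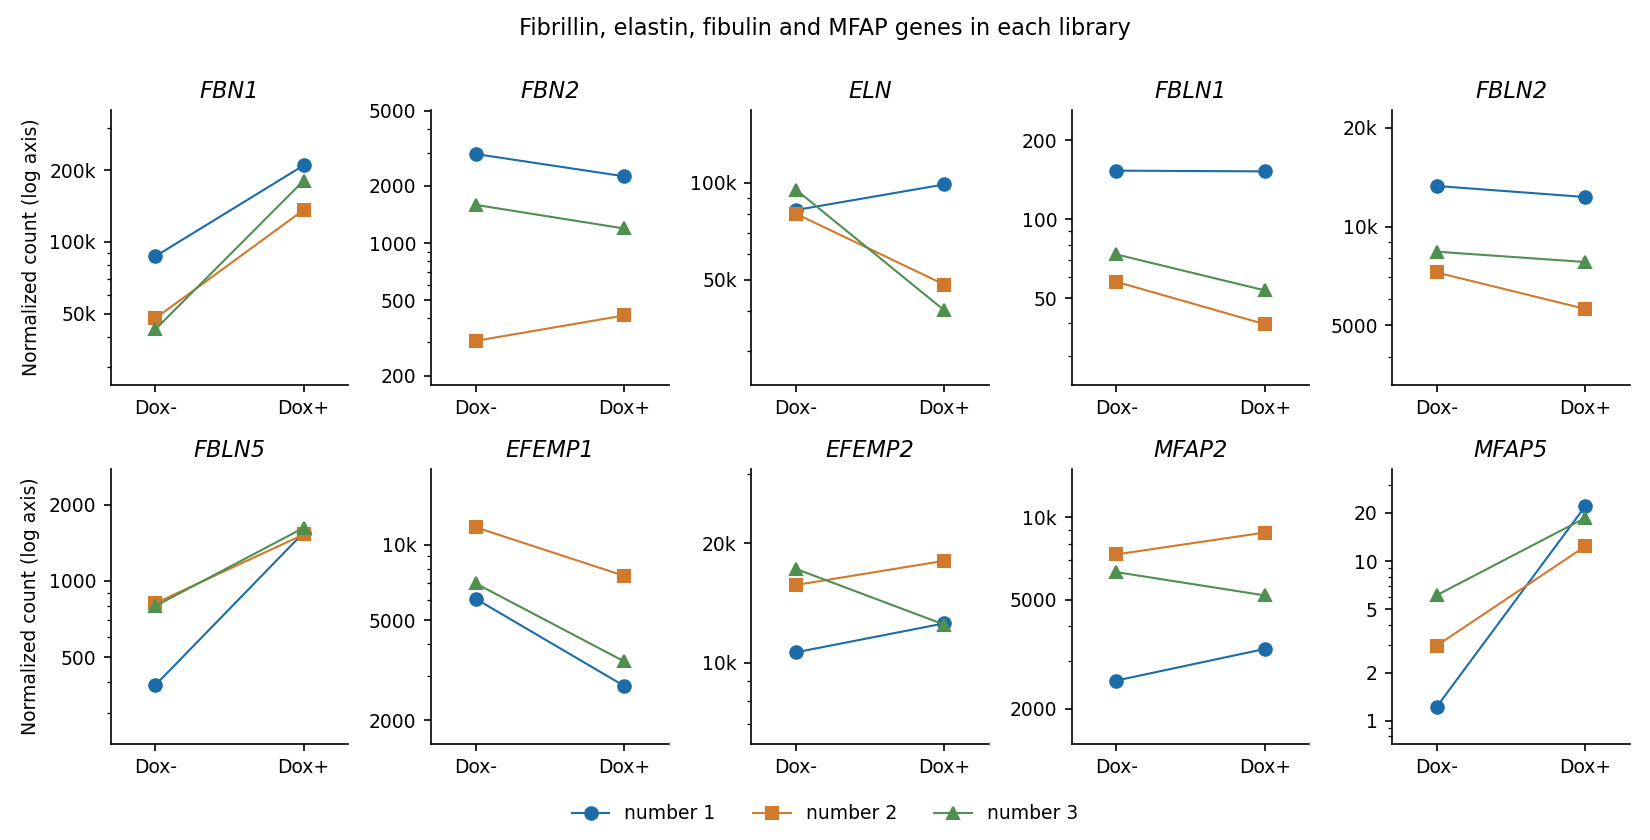
Normalized counts (log axes, each with its own range) of the 10 genes in the 3 Dox- and 3 Dox+ libraries; each line joins the libraries of 1 number. FBN1, FBLN5 and MFAP5 are higher in all 3 Dox+ than in all 3 Dox- libraries. MFAP5 rests on 2, 2 and 10 reads in Dox- 1, 2 and 3, and reached the filter only through the Dox+ group. EFEMP1, FBLN1 and FBLN2 are lower in every pair, and the lines of FBN2 stay apart by number.

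ELN (ENSBTAG00000019517), which encodes tropoelastin, the soluble precursor of elastin, was abundant in both groups and did not pass the test. Its values were 82315, 80149 and 95219 normalized counts without doxycycline against 98904, 48241 and 40098 with it. The Dox- libraries lay close together, while 2 Dox+ libraries were below and 1 was above all of them. The mean was 85894 ± 8147 in Dox- and 62414 ± 31862 in Dox+ (SD, n = 3), a difference of -0.57 (SE 0.33, limma adjusted p = 0.67, 95% interval -1.33 to 0.18). The pairs differed by 0.26, -0.73 and -1.25. Pair 1 went the other way from pairs 2 and 3, and ELN passed only in the block fit without pair 1 (difference -0.99, limma adjusted p = 0.045, and 0.045 to 0.999 over the alternatives).

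Among the 5 fibulins, 0 passed the test without the block, and with the block FBLN5 was higher and EFEMP1 lower. FBLN5 (ENSBTAG00000018123) encodes the fibulin that binds tropoelastin and cell integrins and is needed for elastic fibre assembly. It had 388, 816 and 796 normalized counts without doxycycline against 1552, 1526 and 1621 with it. The Dox+ libraries were nearly equal to each other and each exceeded every Dox- library, of which number 1 was lowest. The mean went from 666 ± 242 to 1566 ± 49.2 (SD, n = 3), a difference of 1.31 (SE 0.30) or 2.48-fold, with a limma adjusted p of 0.059. With the block the limma adjusted p was 0.0089. Without the block, DESeq2 gave an adjusted p of 0.0029 and edgeR one of 0.070, which missed the threshold. Over 21 alternatives the adjusted p ran from 3.7e-12 to 0.26. The lowest value came from a limma block fit without 1 pair, which rests on only 4 libraries. Without pair 1, the pair with the largest difference, the block fit gave 0.96 (limma adjusted p = 0.089).

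EFEMP1 (ENSBTAG00000017448), a fibulin of many connective tissues that is not essential for elastic fibres in most organs, stood at 6084, 11730 and 7010 normalized counts without doxycycline. With doxycycline it was 2736, 7509 and 3425. The groups overlapped, since Dox+ 2 lay above Dox- 1 and Dox- 3, but each pair was lower with doxycycline, by -1.15, -0.64 and -1.03. The difference of -0.94 (SE 0.39), 1.92-fold lower, did not pass without the block (limma adjusted p = 0.41) and passed with it (limma adjusted p = 0.0093, SE 0.18). Over 21 alternatives the adjusted p ran from 1.1e-06 to 0.95. The lowest value came from a limma block fit without 1 pair, which rests on only 4 libraries. In such a fit without pair 1 it was 0.11.

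EFEMP2 (ENSBTAG00000021457), the fibulin that tethers lysyl oxidase to tropoelastin and is required for elastic fibres, had 10629, 15711 and 17250 normalized counts without doxycycline against 12575, 18085 and 12478 with it. The groups overlapped, with a difference of -0.01 (SE 0.24, limma adjusted p = 0.997). The 95% interval with the block, -0.44 to 0.43, leaves out a change of 1.31 as in FBLN5.

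FBLN2 (ENSBTAG00000004014), which binds fibronectin, fibrillin and the large proteoglycans, had 13290, 7247 and 8384 normalized counts without doxycycline against 12301, 5615 and 7800 with it. FBLN1 (ENSBTAG00000012088), a fibulin of basement membranes and elastic fibres, had 153, 57.7 and 73.4 without doxycycline against 152, 39.7 and 53.5 with it. Both genes were highest in library 1 of each group and lowest in library 2, and both were slightly lower in each of the 3 pairs. Neither passed the test: the difference was -0.19 (SE 0.32) for FBLN2 and -0.33 (SE 0.58) for FBLN1, with limma adjusted p of 0.91 and 0.92. With the block the 95% intervals were -0.57 to 0.18 and -1.06 to 0.40, so a fall of 2-fold was outside the interval for FBLN2 but inside it for FBLN1. FBLN1 had between 23 and 250 reads per library, which limits its precision.

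MFAP2 (ENSBTAG00000003832), a small glycoprotein bound along the fibrillin microfibril, had 2535, 7321 and 6306 normalized counts without doxycycline against 3307, 8798 and 5186 with it. The groups overlapped and number 1 was lowest in each of them. The difference was 0.12 (SE 0.45, limma adjusted p = 0.97), with an interval of -0.29 to 0.54 with the block.

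MFAP5 (ENSBTAG00000000310), the close relative of MFAP2 that carries an integrin-binding motif, was scarce. It had 1.23, 2.96 and 6.12 normalized counts in Dox- 1, 2 and 3, from 2, 2 and 10 reads, and 22.0, 12.4 and 18.6 in Dox+ 1, 2 and 3, from 13, 28 and 8 reads. All Dox+ libraries lay above all Dox- libraries. The mean over the 6 libraries, 10.5, passed the filter at 10 only through the Dox+ group, since the Dox- mean was 3.43 ± 2.48 (SD, n = 3). The difference was 2.20 (SE 0.74), the largest estimate of the family, but missed the threshold (limma adjusted p = 0.25, block fit 0.11). A count of 3 reads, the floor below which a value was not read as different from 0, was worth 1.83 to 4.44 normalized counts in Dox- libraries, so the fold has a wide error.

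**Figure D2:**
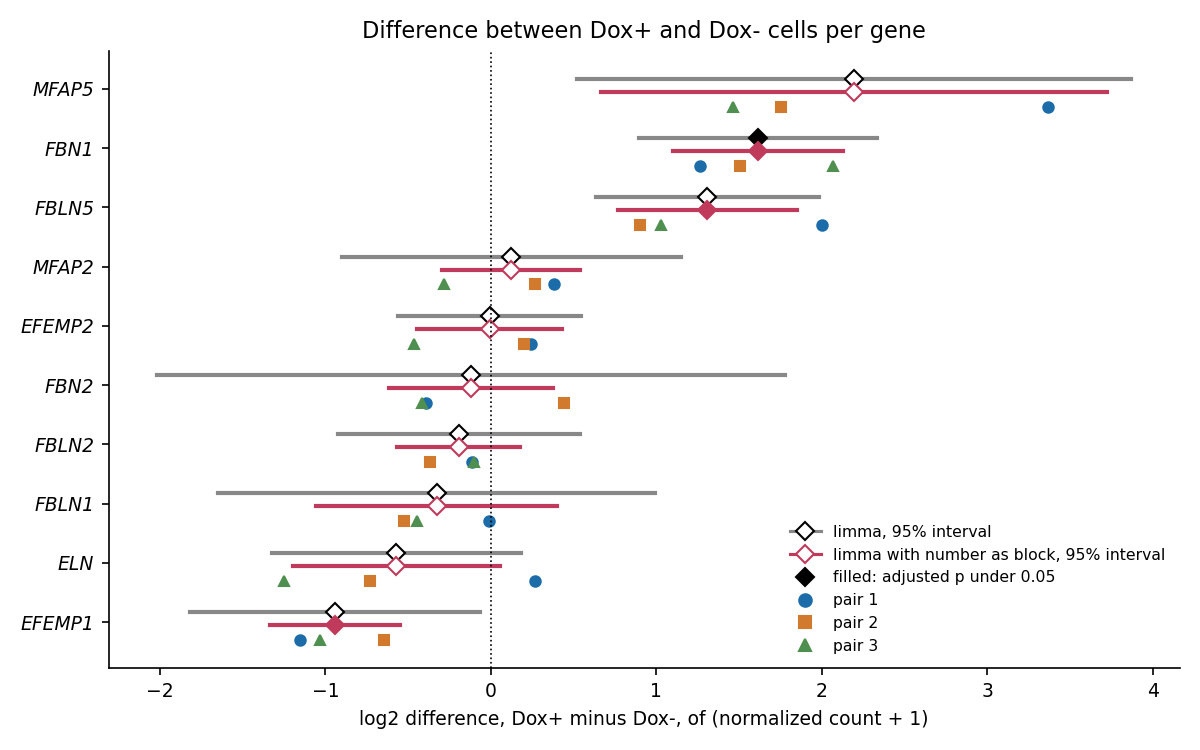
Difference between Dox+ and Dox- cells on the log2(normalized count + 1) scale for the 10 genes, with 95% intervals from limma without (grey) and with (red) the library number as a block, and the 3 same-numbered pairs below. FBN1 is filled in both fits, FBLN5 and EFEMP1 only with the block, and the interval of FBN2 shrinks most when the number is a block.

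All 10 genes passed the filter of a mean of at least 10 normalized counts, and of these 1 was called higher and 0 lower by limma. Over all 13180 genes tested, 2.52% were called higher and 0.357% lower. At an unadjusted p under 0.05, FBN1, FBLN5 and EFEMP1 passed in limma, where 10.6% of all tested genes did. MFAP5 passed too (limma unadjusted p = 0.016), but it reached the filter only through its Dox+ values, so it is not read against that share. With the number as a block, 2 were called higher and 1 lower, against 4.86% and 1.65% of all tested genes. For FBN1 and FBLN5 all Dox+ libraries exceeded all Dox- libraries, which held for 8.88% of all tested genes, and for 0 of the 10 the reverse held, against 6.29%. MFAP5 did not overlap either, but it was tested only because its Dox+ values were high, so it is not counted with these 2. The median difference of the 10 genes was -0.06, beside -0.0036 for all tested genes. In the authors' deposited table, FBN1 (log2 fold change 1.56, adjusted p = 3.2e-11), FBLN5 (1.21, adjusted p = 3.4e-05) and EFEMP1 (-0.87, adjusted p = 0.00022) passed 0.05 and the other 7 did not, where 5.24% of genes with an adjusted p in that table were higher and 2.05% lower.

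Close relatives were also set against each other within each library, as ratios of normalized count + 1. Apart from the added 1, such a ratio does not depend on the scaling. The log2 ratio of FBN2 to FBN1 was -4.88, -7.29 and -4.76 without doxycycline against -6.54, -8.35 and -7.24 with it. It was lower with doxycycline in 3 of 3 pairs, by -1.73 on average, but Dox- 2 lay below Dox+ 1 and Dox+ 3 (exact permutation p = 0.30, two-sided). The ratio of EFEMP2 to EFEMP1 was higher in 3 of 3 pairs, by 0.94 on average (exact permutation p = 0.20), as EFEMP1 was lower and EFEMP2 was not. The ratio of MFAP5 to MFAP2 was computed too, but MFAP5 had 2 reads in Dox- 1 and in Dox- 2, below the floor of 3, so neither its size nor its test is read here. The ratio of FBLN2 to FBLN1 differed by 0.13 and was higher in 2 of 3 pairs (exact permutation p = 0.60), and its sign turned to -0.02 without Dox- 1 and to -0.01 without Dox+ 3. With 3 against 3 libraries this exact test cannot give a p below 0.10, so it could not pass 0.05 for any ratio, and adjusted over the 4 ratios the p-values were 0.40 to 0.60.

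Summed over the 10 genes, the family held 205395, 171215 and 179663 normalized counts without doxycycline against 343000, 226369 and 252389 with it. FBN1 made up 42.4%, 28.0% and 24.0% of that sum without doxycycline against 61.0%, 60.1% and 71.5% with it. ELN made up 40.1%, 46.8% and 53.0% without doxycycline against 28.8%, 21.3% and 15.9% with it. In each Dox+ library FBN1 took a larger share and ELN a smaller share than in any Dox- library. FBN1 stands in the same sum as ELN. Of all normalized counts, ELN took 0.161%, 0.135% and 0.178% without doxycycline against 0.193%, 0.0893% and 0.0859% with it, and these groups overlapped. Counts are not divided by transcript length, so these shares can be followed between groups but do not rank the genes by molecules.

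**Figure D3:**
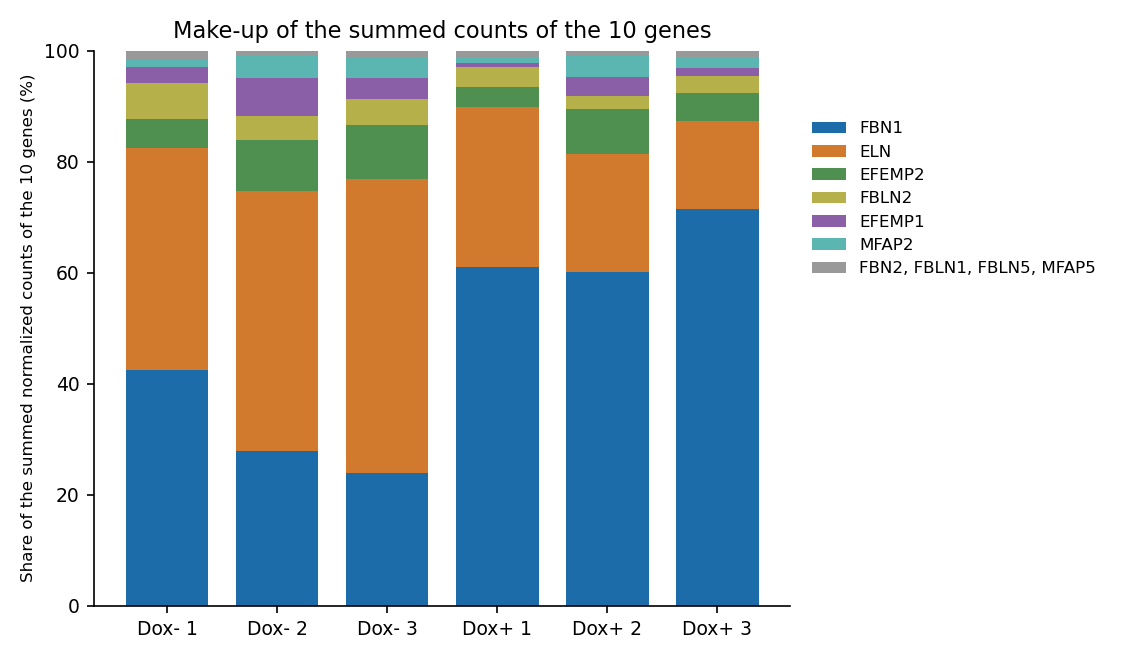
Share of each gene in the summed normalized counts of the 10 genes (%), per library. FBN1 holds 24.0% to 42.4% in Dox- and 60.1% to 71.5% in Dox+ libraries, and ELN 40.1% to 53.0% and 15.9% to 28.8%.

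Several members varied more between library numbers than between groups. Tested for any difference between the 3 numbers in the block fit, a question added after the values were seen, 3 of the 10 genes passed (FBN2, MFAP2 and EFEMP1), against 2.41% of all tested genes. FBN2 varied most: averaged over both libraries of a number, its level spanned 7.23-fold between numbers 1 and 2 (limma adjusted p = 0.0030). MFAP2 spanned 2.77-fold and EFEMP1 2.30-fold, both highest in number 2 and lowest in number 1 (limma adjusted p = 0.023 and 0.034). FBLN1 spanned 3.15-fold and FBLN2 2.00-fold, in the opposite order, highest in number 1 and lowest in number 2, but missed the threshold (limma adjusted p = 0.11 and 0.066). FBN1, ELN, FBLN5, EFEMP2 and MFAP5 spanned 1.46-fold to 1.67-fold, with limma adjusted p between 0.27 and 0.78. What sets the numbers apart was not tested.

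**Figure D4:**
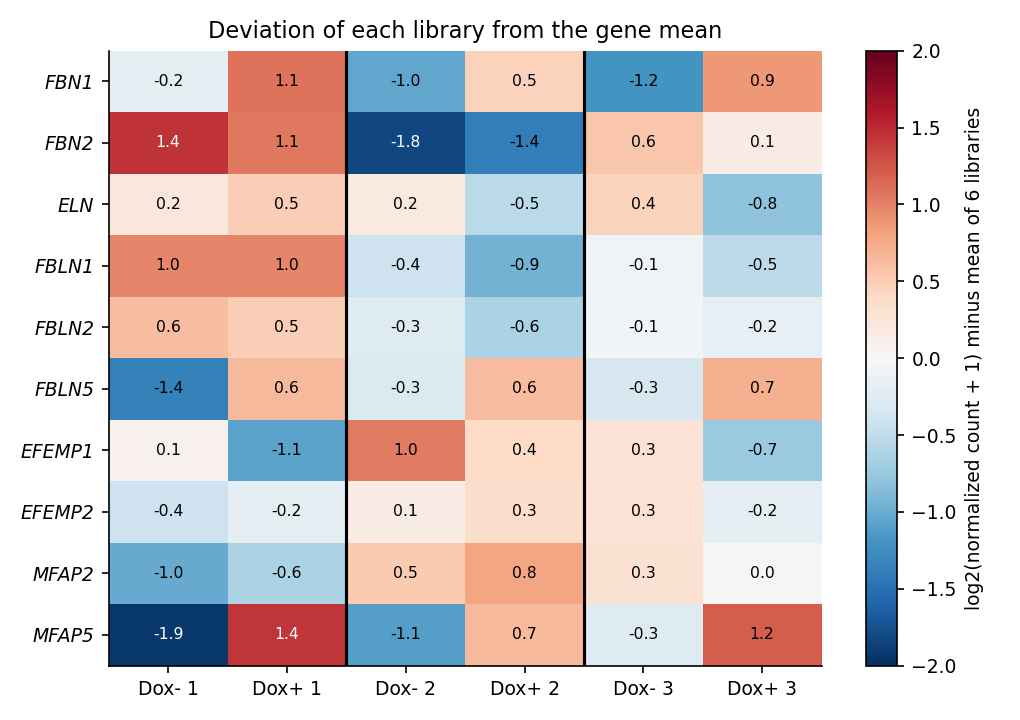
Deviation of each library from the mean of the 6 libraries, on the log2(normalized count + 1) scale, for the 10 genes with libraries ordered by number. FBN2, FBLN1, FBLN2 and MFAP2 have the same sign in both libraries of each number. FBN1, FBLN5 and MFAP5 change sign with doxycycline in each number, where MFAP5 rests on 2, 2 and 10 reads in Dox- 1, 2 and 3.

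Among 65 genes that act with fibrillins and elastin, listed by role with earlier results of these data known, 57 passed the filter. Limma called 8 of them higher and 1 lower (against 2.52% and 0.357% of all tested genes). With the block 14 were higher and 3 lower, against 4.86% and 1.65% of all tested genes. The 8 include the proteases CTSL and MMP12, which reached the filter only through the Dox+ group, and 2 of the 14 are from the same protease list. The counts of higher genes are therefore not read against those shares. The median difference of the 57 genes was 0.18. Without the block, 0 to 2 genes were called higher in each list. With the block, 6 of the 14 were in the list of microfibril and elastic fibre partners, and each other list had 0 to 2.

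Of 12 tested matrix partners of microfibrils, VCAN and TNXB rose and 0 fell. VCAN, the proteoglycan versican, which binds fibrillin and fibulins, had 3076, 5391 and 1025 normalized counts without doxycycline against 24500, 27618 and 22843 with it (limma adjusted p = 0.0092, and 0.061 without Dox+ 3). TNXB, a tenascin of elastic connective tissue, went from 22.7, 59.2 and 37.3 to 272, 1262 and 305 (limma adjusted p = 0.015, 0.056 without Dox- 3 and 0.058 without Dox+ 3). EMILIN2, a glycoprotein of the elastin and microfibril interface, had 49.1, 17.7 and 30.6 without doxycycline against 247, 94.0 and 149 with it, without overlap, and missed the threshold (limma adjusted p = 0.055, block fit 0.0020). In the block fit 6 of the 12 were called higher and 1 lower, where 4.86% and 1.65% of all tested genes were. The list was written with earlier results of these data known, so these shares give no test of it. Besides VCAN, TNXB and EMILIN2, the higher genes were the fibulin FBLN7 (difference 1.88), the giant fibulin-related hemicentin HMCN1 (1.60) and MFAP4 (1.58). MFAP4 is a glycoprotein that binds elastin and fibrillin. The lower gene was HSPG2, the proteoglycan perlecan (-0.91). These last 4 were named after their values were seen, and their limma adjusted p was between 0.11 and 0.24 without the block and between 0.014 and 0.047 with it. FBN3, MFAP3L and MMRN1 had 0 reads in each library, and HMCN2, EMILIN3 and MMRN2 lay below the filter.

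Of 7 genes for latent TGF-beta binding proteins and TGF-beta ligands, LTBP1 alone passed. LTBP1, which docks latent TGF-beta on fibrillin microfibrils, had 5003, 9445 and 7520 normalized counts without doxycycline against 29603, 54978 and 38530 with it. The groups were far apart, and the difference was 2.49 (SE 0.30), a 5.61-fold rise (limma adjusted p = 0.0024), which passed with each library left out (0.0025 to 0.024). LTBP3 was 0.88 higher (limma adjusted p = 0.32, block fit 0.018) while the difference for TGFB2 was -0.65 (limma adjusted p = 0.18). TGFb2 protein was also part of the medium of both groups.

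Of 5 lysyl oxidase genes, whose enzymes cross-link elastin and collagen, LOXL4 fell and 0 rose. LOXL4 had 8974, 11209 and 17295 normalized counts without doxycycline against 3457, 2316 and 4665 with it, without overlap. It was 3.60-fold lower (difference -1.85, SE 0.31, limma adjusted p = 0.015, and 0.0067 to 0.0497 with 1 library left out, and 0.060 at most over 21 alternatives). LOX was not called (difference 0.20, limma adjusted p = 0.91), nor was LOXL2, which lay lower in all Dox+ than in all Dox- libraries (difference -0.64, limma adjusted p = 0.35). For LOXL3 the difference was -0.46 (limma adjusted p = 0.83).

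Of 10 ADAMTS and ADAMTS-like genes, ADAMTS17 rose and 0 fell. ADAMTS17, a protease tied to fibrillin microfibrils through human short stature syndromes, had 73.0, 68.0 and 20.8 normalized counts without doxycycline against 406, 360 and 335 with it. The Dox+ libraries lay well above the Dox- libraries, 7.63-fold in the fit (limma adjusted p = 0.012, 0.055 without Dox+ 1 and 0.077 without Dox+ 3). ADAMTSL4, which binds FBN1 and favours its deposition, differed by 0.41 and ADAMTS6 by -0.80 (limma adjusted p = 0.49 and 0.20).

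Of 7 genes for fibrillin processing, PCSK5 rose. PCSK5, a proprotein convertase of the furin family, had 620, 620 and 562 normalized counts without doxycycline against 2395, 2699 and 2260 with it. Replicates lay close together in both groups, and the 4.07-fold rise (difference 2.03, SE 0.18) had a limma adjusted p of 0.00046, and 0.00087 to 0.0069 with 1 library left out. FURIN, the convertase known to mature fibrillin, was not called (difference -0.51, limma adjusted p = 0.58), nor was POGLUT2, which adds glucose to the EGF-like domains of fibrillins (difference 0.74, limma adjusted p = 0.27, block fit 0.048).

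Of 8 tested integrin and syndecan genes, ITGB8 rose. ITGB8, a partner of the alpha V integrin that activates latent TGF-beta, had 123, 112 and 77.0 normalized counts without doxycycline against 403, 248 and 488 with it. Its 3.55-fold rise had a limma adjusted p of 0.025, and of 0.071 or 0.083 when Dox- 2 or Dox- 3 was dropped, and 0.11 or 0.17 when Dox+ 1 or Dox+ 3 was dropped. ITGB3 was lower in every Dox+ than in every Dox- library (difference -0.90, limma adjusted p = 0.14, block fit 0.013), and ITGB1 was not called (difference 0.60, limma adjusted p = 0.45).

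Of 8 tested genes for elastin-degrading proteases, CTSL and MMP12 rose and 0 fell. Both reached the filter of 10 only through the Dox+ group, with Dox- means of 8.34 and 0 normalized counts, so their count is not read against the share over all genes. CTSL, a lysosomal cysteine protease, had 20.2, 2.96 and 1.83 normalized counts without doxycycline against 858, 459 and 621 with it (limma adjusted p = 0.0013). Its Dox- values rest on 33, 2 and 3 reads, so the size of the difference is uncertain. CTSV, a close relative listed under its own identifier, had between 7502 and 11105 normalized counts in all libraries, and the division of reads between the pair is uncertain. MMP12, the macrophage metalloelastase, had 0 reads in each Dox- library and 33.8, 15.4 and 156 normalized counts in Dox+ 1, 2 and 3. Set against 3 reads in each Dox- library as the floor, it was at least 25.3-fold higher, and at least 9.12-fold higher without Dox+ 3, (limma adjusted p = 0.016, 0.055 without Dox- 3, 0.055 without Dox+ 1 and 0.088 without Dox+ 3). In the leukocyte and macrophage list, whose sum ran from 204 to 494 in Dox- and from 381 to 736 in Dox+, CD68 had 317, 138 and 241 normalized counts without doxycycline against 582, 294 and 246 with it, higher in 3 of 3 pairs (limma adjusted p = 0.72). CD14 and CSF1R were detected in every library and TYROBP in both libraries of number 1, while CD163, ITGAM, PTPRC and LYZ lay at or near 0. Their part in the MMP12 result was not tested. CTSS, another cathepsin of the list, differed by 0.86 (limma adjusted p = 0.28).

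**Figure D5:**
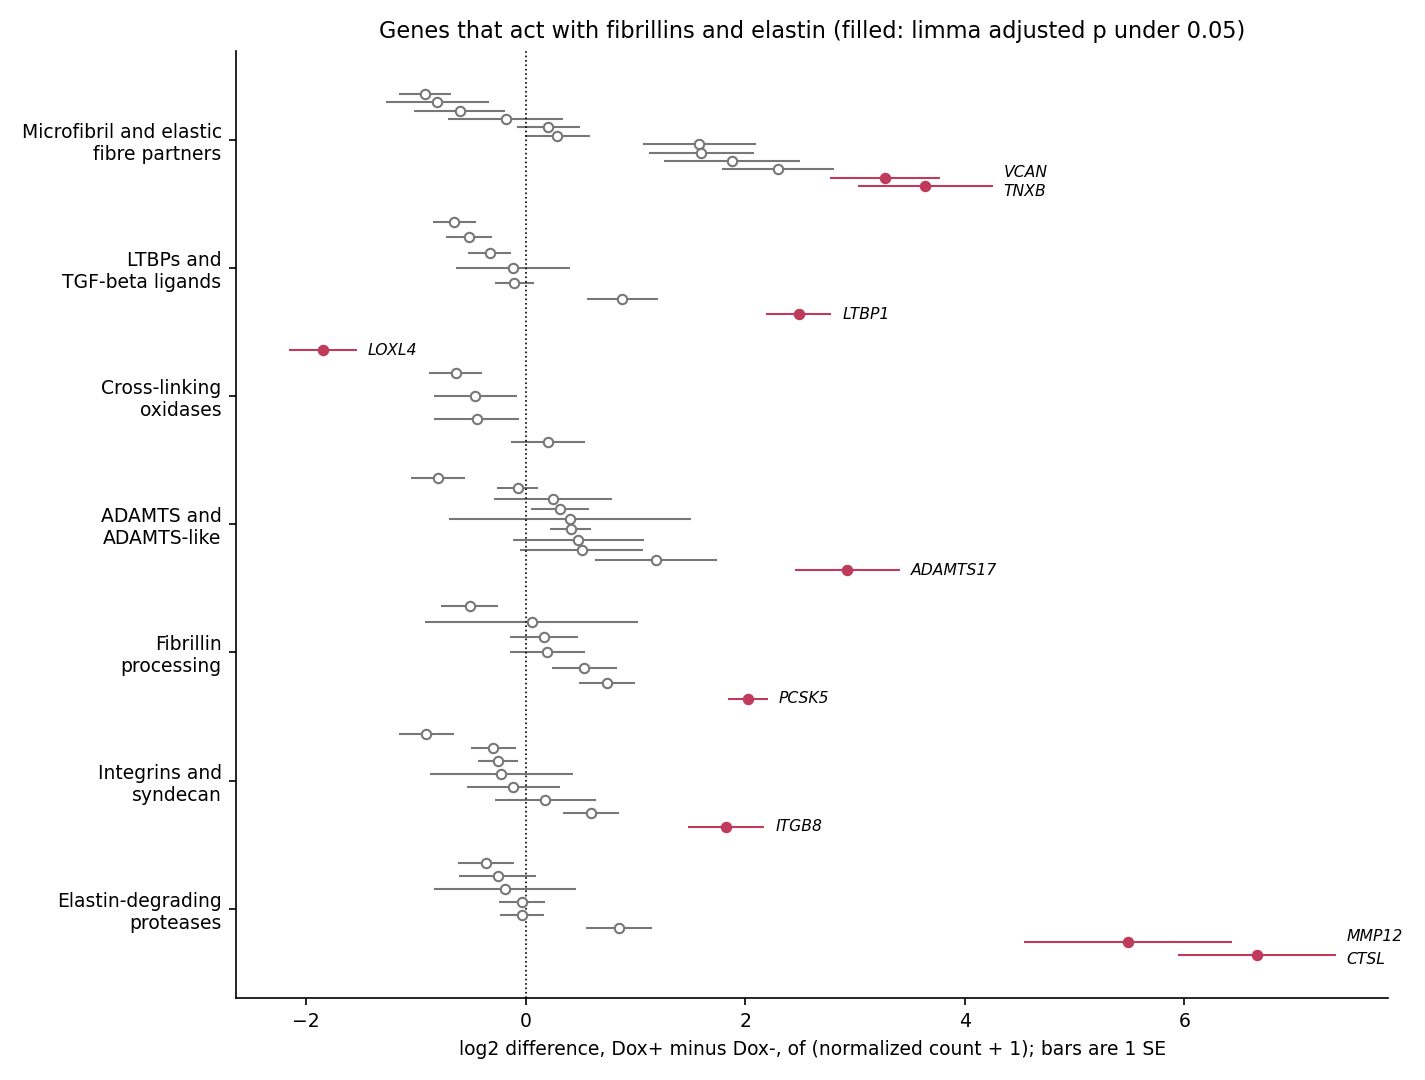
Difference between Dox+ and Dox- cells on the log2(normalized count + 1) scale, with 1 SE, for the 57 tested genes that act with fibrillins and elastin, grouped by role. Filled points passed limma at an adjusted p of 0.05: 8 lie to the right of 0 and LOXL4 lies to the left.

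The genes whose levels followed FBN1 most closely over the 6 libraries were STEAP4, a metalloreductase (Pearson r = 0.997), DUSP6, a phosphatase of ERK kinases (0.996), and MMP3, the protease stromelysin (0.995), by the rule of the highest r among 10935 genes with a symbol and a mean of at least 50. Like FBN1 they were higher in all Dox+ than in all Dox- libraries and highest in number 1 of each group. They were picked for following FBN1, so this likeness is no separate result. STEAP4 had 29.4, 5.92 and 3.06 normalized counts without doxycycline against 778, 151 and 360 with it. Its Dox- values rest on 48, 4 and 5 reads. With a Dox- mean of 12.8, it reached the mean of 50 only through the Dox+ group. Each r rests on 6 libraries in 2 groups, so genes that differ between the groups can reach a high r. Of the 10935 genes, 365 had r above 0.9.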

How the data were processed

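RNA of 6 cultures was sequenced after mRNA purification (KAPA mRNA HyperPrep, per the labels' protocols). The deposited signal is a normalized count per gene, which the authors scaled by a single factor per library, and 100% of values were whole reads within 0.01 read once that factor was undone. The submitters' processing notes name, with no role, FastQC 0.11.3, MultiQC 1.2, the aligner STAR 2.5.2b, DESeq2, Salmon, and the genome builds bosTau9 and ARS-UCD1.2. Annotation version and strand setting: not given in the sources used here. Overlapping antisense genes therefore cannot be told apart. The authors' deposited comparison table holds a log2 fold change, a p-value and an adjusted p-value per gene. Shrinkage of those fold changes is not stated, but the one for MFAP5 is 0.31 (SE 0.57), against a difference of 2.20 in limma here. The deposited fold changes are therefore not the same measure as the differences given here.

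The main test was limma 3.58.1 in R 4.3.3 (two-sided, with eBayes trend) on log2(normalized count + 1), with a term for group alone. It covered the 13180 genes whose mean reached 10, with Benjamini-Hochberg adjustment over all of them and a threshold of 0.05. Members and lists were chosen with earlier results of these data known. Named were the 10 members, up to 3 genes per partner list with the smallest p, and for each called member the 3 genes of highest Pearson r. Ratios within a library were compared by exact permutation of 3 against 3 libraries. Alternatives were other pseudocounts (0.5, 4), filters (none, 50), TMM and upper-quartile scaling, eBayes without trend, edgeR 4.0.16 and DESeq2 1.42.0 on the recovered reads, the number as a block, and fits without 1 library or 1 pair.

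Deviations from the group means correlated at 0.646, 0.443 and 0.212 between libraries of the same number and at -0.590 to 0.183 between others. Deviations within a group sum to 0, so positive values for the same number push the others down. For number 3 the value of 0.212 was close to the 0.183 of Dox- 3 with Dox+ 2. The numbers were taken to pair the libraries, which the labels do not state. Libraries of a group differed by more than sampling noise (chi-square per degree of freedom 54.8 to 414), so each counted as 1 replicate. Floors of 3 reads cover counting error only. Sequences of these genes, and motifs in their promoters, were not analysed here.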

Additional observations from a re-analysis of the deposited data

How the results depend on the processing

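The libraries were taken as paired by number, and the block changed the counts of calls. With the block, limma called 2 members higher and 1 lower, 640 and 218 of all genes, and 14 and 3 of the partner genes. EdgeR with the block gave 2 and 1 members, 591 and 190 genes, and 3 lower partner genes, and DESeq2 with the block gave 2 and 1, 743 and 306, and 15 and 7. DESeq2 without the block called 2 members higher, 542 genes higher and 159 lower, and 2 partner genes lower, whereas edgeR, run on the recovered reads, called 304 and 39 genes. Without a filter 0 members were higher (FBN1 adjusted p = 0.05001), and without the eBayes trend 0 members were higher, 23 genes lower and 0 partner genes lower. Leaving out 1 library gave 0 to 1 members higher, 0 lower, 139 to 365 genes higher, 9 to 72 lower, 3 to 9 partner genes higher and 1 to 2 lower. The block fit without pair 1, 2 or 3, which rests on 4 libraries, gave 594, 934 and 917 genes higher and 187, 276 and 537 lower, with 1 to 2 members higher, 1 lower, 10 to 17 partner genes higher and 2 to 6 lower. With 1 library left out, the log2 difference spanned 0 for FBN2 (-1.06 to 0.57), FBLN1 (-0.90 to 0.079), FBLN2 (-0.49 to 0.073), EFEMP2 (-0.22 to 0.13), MFAP2 (-0.35 to 0.47) and the ratio of FBLN2 to FBLN1 (-0.017 to 0.40). In block fits without a pair, FBN2 was at 0.015 (pair 1) and 0.027 (pair 3), MFAP2 at -0.0086 (pair 1) and EFEMP2 at 0.22 (pair 3). EFEMP2 was also positive under TMM scaling (8.8e-05) and in edgeR with the block (0.0011). The members' median ran from -0.21 to 0.13. The cause of these changes was not tested. The sign of FBN1, ELN, FBLN5, EFEMP1, MFAP5 and the 21 named partner genes turned under none of the alternatives run, 21 each except 20 for MFAP5 and MMP12, which a filter of 50 removes. LOX ran from -0.10 to 0.58. The 3 members that differed between numbers stayed 3 in count under 5 added alternatives. In a sign-flip test over same-numbered differences (a replicate block for the ratios), the average differences stay as they are (-1.73 for FBN2 to FBN1, 0.94 for EFEMP2 to EFEMP1 and 0.13 for FBLN2 to FBLN1) and p cannot fall below 0.25. Depth limits MFAP5, with 2 to 28 reads per library, and FBLN1.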
